A study of Mus musculus with 4 samples.

Results

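Alveolar macrophages that carried many transcripts of DNA replication genes are described here: 450 cells out of 19193 alveolar macrophages and 22258 cells of all kinds. Each unique molecular identifier (UMI) counts 1 captured transcript, and barcodes were kept from 1000 UMIs and 500 genes upward where mitochondrial genes took 10% of UMIs or less. A kept barcode was an alveolar macrophage (AM cell) by its UMIs of Chil3, Ear1, Ear2, Fabp1, Lpl and Plet1, which had to reach 0.4% of its total and exceed those of C1qa, C1qb and C1qc. A member held at least 8 UMIs of Mcm2 to Mcm7, Pcna, Hells, Uhrf1 and Lig1 together, and under 5 UMIs of Top2a, Mki67, Cenpf, Cenpe, Ube2c, Ccnb2, Birc5, Hmmr, Nusap1 and Prc1 together. The members were set beside 18106 AM cells below both limits. Because the cells were chosen by these counts, their difference from other AM cells is a description and carries no test.

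The study sorted macrophages from dissociated lungs of female mice and profiled them with a 10x Genomics 3′ assay, in which each transcript is counted near its poly(A) tail. There were 4 libraries, 1 per group: MMTV-HER2 mice at 16 weeks (HER2 early), wildtype FVB mice at 16 weeks (wildtype early), MMTV-HER2 mice at 32 weeks (HER2 late) and wildtype FVB mice at 32 weeks (wildtype late). In MMTV-HER2 mice a mouse mammary tumour virus promoter, active chiefly in mammary epithelium, drives the HER2 oncogene. The labels call the 16-week stage that of early lesions and the 32-week stage that of palpable tumours, their strain field names both genotypes for every sample, and genotypes were taken from the sample titles. The number of mice per library and the sorting antibodies are not given in the sources used here. With 1 library per group, intervals below cover counting error only, and mouse, library and group cannot be told apart.

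Cells enter the cycle when cyclin D and then cyclin E kinases release E2F transcription factors, which switch on the genes of DNA replication. The MCM2 to MCM7 helicase is loaded on origins by ORC, CDC6 and CDT1, is activated by CDC45 and GINS, and is followed at the fork by polymerases and by the sliding clamp PCNA. Alveolar macrophages keep their number in the adult lung largely by dividing in place. The members numbered 86 in HER2 early, 103 in wildtype early, 133 in HER2 late and 128 in wildtype late, and no barcode was a member in more than 1 library. Between 1 and 13 cell barcodes were shared by any pair of libraries; 1 member barcode was also a cell of the other library in the pair HER2 early and wildtype late, and 2 in the pair wildtype late and wildtype early.

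The genes used for choosing the members are higher by the choice itself and are given as a description. Mcm6, a helicase subunit, had 135, 153, 146 and 123 CPM (UMIs scaled to 1000000 per library and class) in the members of HER2 early, wildtype early, HER2 late and wildtype late, against 11.03, 10.2, 8.95 and 7.77 CPM in AM cells below both limits. Uhrf1, which carries DNA methylation through replication, had 71.9, 78.5, 78.7 and 80.2 CPM in members, against 2.55, 3.10, 2.45 and 2.44 CPM below. Members lay above the other AM cells in all 4 libraries for both genes, with no overlap. Across the 10 rule genes the difference in log2(CPM + 1), averaged over the 4 libraries, ran from 2.24 ± 0.26 for Pcna to 4.43 ± 0.14 for Uhrf1 (SD, n = 4 libraries). Hells, a chromatin remodeller (3.97 ± 0.13), Mcm5 (3.84 ± 0.05) and Lig1, the ligase that seals lagging-strand fragments (3.38 ± 0.12), lay between. The 3′ end of Mcm7 shares at least 90 bases with the pseudogene Gm5487 and that of Mcm5 shares such a run with 4 other genes, so some of their reads may be split.

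Per cell the members held a median of 11, 12, 11 and 11 replication UMIs in HER2 early, wildtype early, HER2 late and wildtype late, with a highest cell of 26, 36, 33 and 30. The limit cut a continuous distribution: 158 members held 8 or 9 replication UMIs, and 319 AM cells just below held 6 or 7. The 10 genes summed to between 1179 and 1472 CPM just inside the limit and between 881 and 1079 CPM just outside it. Members were also deeper, with median totals of 6352, 6861, 6801 and 6872 UMIs, against 3651, 4206, 4257 and 4660 UMIs in AM cells below both limits. An absolute number of UMIs is reached more easily by a deep cell. The contrast with AM cells below both limits was therefore also computed with those cells weighted to the members' depth. Depth-matched values are given for some genes and counts. Contrasts with cells above the mitosis limit or above both limits were not depth-matched, nor were gene comparisons between libraries. Barcodes with 10 to 100 UMIs, taken as free RNA, carried the 10 genes at 230 to 348 CPM, which amounts to 1.57 to 2.39 UMIs at the members' median depth.

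The windows around the starts of 4 genes are shown to print the E2F-type letters that many of the leading genes carry, with Slfn9 as a leading gene that lacks them. They are RefSeq promoter windows (GRCm38.p6) from 250 bases before to 50 bases after the start, written 5′ to 3′ on the gene's strand, with matches to TTTCCCGC, TTTGGCGC, TTTCGCGC or TTTGCCGC on either strand in capitals; overlapping matches run together. Mcm5 lies at chr8:75109259-75109558 (plus strand), Mcm6 at chr1:128359656-128359955 (minus), Pclaf at chr9:65890073-65890372 (plus) and Slfn9 at chr11:82991781-82992080 (minus).
Mcm5: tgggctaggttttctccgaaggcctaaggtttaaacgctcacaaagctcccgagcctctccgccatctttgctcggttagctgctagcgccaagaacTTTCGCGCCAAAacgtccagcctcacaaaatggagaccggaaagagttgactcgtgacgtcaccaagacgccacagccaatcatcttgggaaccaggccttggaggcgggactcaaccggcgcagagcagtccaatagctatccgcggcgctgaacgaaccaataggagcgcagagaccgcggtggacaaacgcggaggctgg
Mcm6: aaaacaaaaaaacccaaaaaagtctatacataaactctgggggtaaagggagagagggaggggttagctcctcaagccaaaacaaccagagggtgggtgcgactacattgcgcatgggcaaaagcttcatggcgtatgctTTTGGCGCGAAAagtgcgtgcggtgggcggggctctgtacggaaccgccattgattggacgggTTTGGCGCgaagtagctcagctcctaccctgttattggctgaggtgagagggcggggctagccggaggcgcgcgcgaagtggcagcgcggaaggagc
Pclaf: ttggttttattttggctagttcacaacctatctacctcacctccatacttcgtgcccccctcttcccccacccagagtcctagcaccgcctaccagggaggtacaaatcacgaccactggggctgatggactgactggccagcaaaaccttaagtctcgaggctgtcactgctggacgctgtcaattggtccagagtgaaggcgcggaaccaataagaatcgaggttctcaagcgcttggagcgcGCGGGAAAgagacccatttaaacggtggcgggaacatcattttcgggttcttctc
Slfn9: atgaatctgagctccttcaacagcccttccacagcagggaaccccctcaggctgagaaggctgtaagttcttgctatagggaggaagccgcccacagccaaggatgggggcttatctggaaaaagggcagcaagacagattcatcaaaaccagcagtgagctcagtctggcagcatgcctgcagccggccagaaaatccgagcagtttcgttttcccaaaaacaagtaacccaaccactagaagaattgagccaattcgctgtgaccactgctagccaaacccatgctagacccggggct
Mcm6 held 3 matches, Mcm5 2 and Pclaf 1, and Slfn9 held none. A match was present for 7 of the 9 replication genes of the rule that have a window (Mcm3, Mcm5, Mcm6, Mcm7, Hells, Uhrf1 and Lig1). Over all 27025 genes with a window it was 704 (2.605%), and over the 8523 tested genes with a window 420 (4.93%). A gene counted if any of its windows held a match. Mcm7 and Uhrf1 held one in 1 of 2 windows and Lig1 in 1 of 3. Outside the rule, 61 of the 238 genes higher in members that have a window held one (25.6%), against 420 of the 8523 tested genes with a window (4.93%). Among genes lower in members it was 1 of 42 (2.38%). A match is a run of letters and not a measured binding site.

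Of 10754 genes outside the rule with at least 1 CPM over all AM cells, 288 (2.68%) were at least 1.5-fold higher in members in all 4 libraries, and 58 (0.539%) were at least 1.5-fold lower. The median difference over all of them was 0.01 on the log2 scale. At 10 CPM or more, 134 of 7131 genes were higher (1.88%) and 11 lower (0.154%), and at 100 CPM or more 16 of 1260 were higher (1.27%) and 2 lower (0.159%), so most of the lower genes were sparse. Against depth-matched cells 253 were higher (2.35%) and 120 lower (1.12%). Counts were also simulated at these library sizes, without depth matching, with Poisson counting error around a single mean profile. Spread between cells or libraries was not simulated, so the result does not give the rate of such calls in the data. In the simulated counts 24 of 10424 unchanged genes were called lower and 2 higher. From 10 CPM upward 0 unchanged genes were called lower. Among genes with 50 CPM or more in either class, the 12 highest, ranked by the ratio nearest to 1 over the 4 libraries, were Slfn9, Pclaf, Stmn1, Dut, Topbp1, Rrm1, Cbx5, Pola1, Syce2, Atad2, Smc2 and Dnajc9. Most of them are known parts of the replication and chromosome machinery. Several genes under 50 CPM, among them Tk1, Clspn and Cdc45, had larger ratios than most of these.

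**Figure D1:**
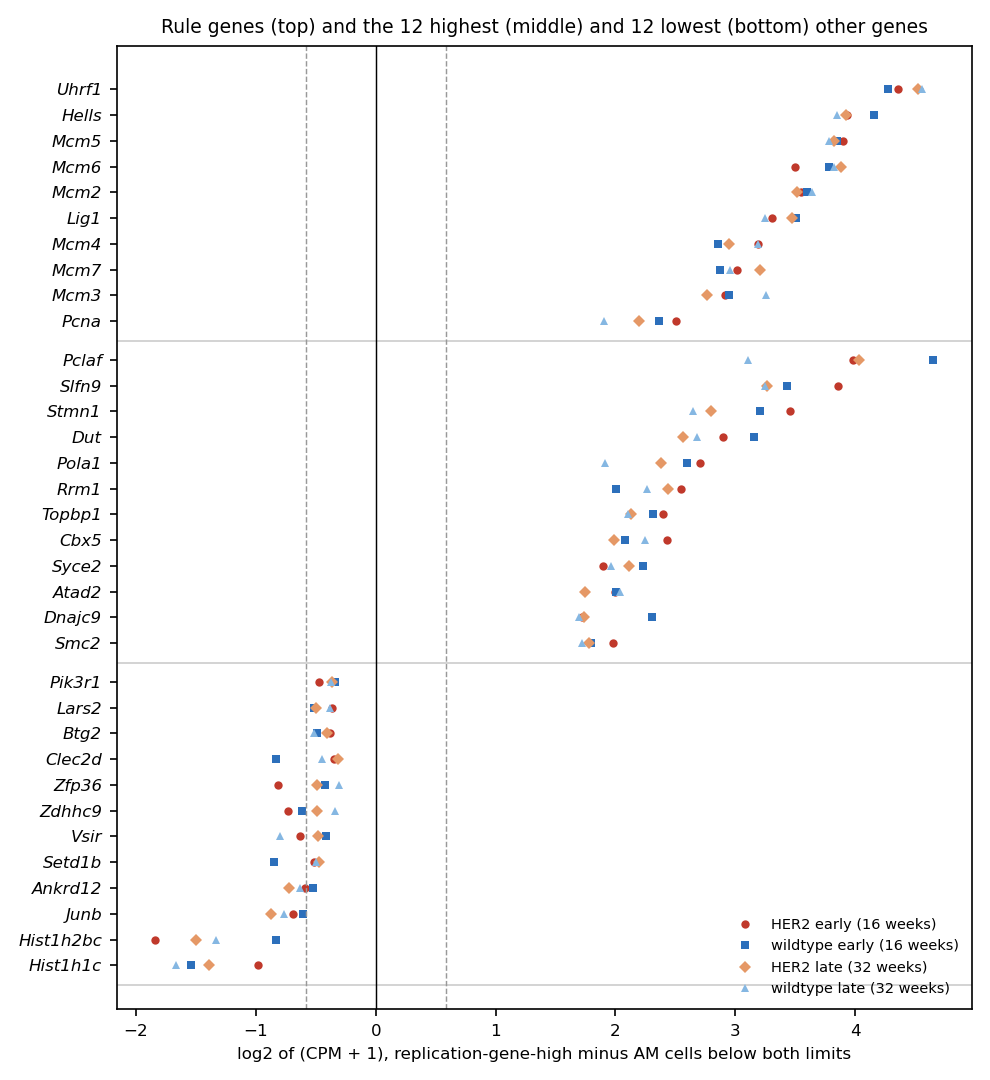
Difference in log2(CPM + 1) between replication-gene-high AM cells and AM cells below both limits (x axis) for the 10 replication genes of the rule, the 12 highest and the 12 lowest other genes with 50 CPM or more in either class (y axis), with 1 point per library and dashed lines at 1.5-fold. The 22 genes of the upper blocks lie right of the line in all 4 libraries, and only Hist1h1c, Hist1h2bc and Junb lie left of it in all 4.

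Slfn9, a member of the Schlafen family, had 89.0, 71.8, 63.0 and 68.5 CPM in members of HER2 early, wildtype early, HER2 late and wildtype late, against 5.22, 5.77, 5.66 and 6.30 CPM below (log2 difference 3.45 ± 0.28, SD, n = 4 libraries). It was high in members of all 4 libraries and nearly flat below. Pclaf, which binds PCNA at the fork, had 51.4, 83.8, 54.1 and 20.3 CPM, against 2.31, 2.37, 2.38 and 1.47 CPM below (3.94 ± 0.63). Its level in members of wildtype late was the lowest of the 4. Stmn1, which destabilises microtubules, had 342, 362, 185 and 127 CPM, against 30.4, 38.3, 25.8 and 19.5 CPM below (3.03 ± 0.37), with both 16-week libraries above both 32-week libraries.

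Origin licensing and firing factors were mostly higher: 13 of 21 measured genes, with a median log2 difference of 1.58. Cdc6, which loads the helicase, had 17.1, 19.95, 17.7 and 23.5 CPM in members, against 1.07, 1.02, 0.911 and 1.07 CPM below. Cdc45, an activator of the helicase, averaged 21.6 ± 4.44 CPM, against 1.24 ± 0.125 CPM below (SD, n = 4 libraries). Cdt1, the partner of CDC6, averaged 90.3 ± 25.2 CPM, against 21.4 ± 3.74 CPM. Its inhibitor Gmnn was higher as well, at 91.3 ± 25.2 CPM in members and 27.5 ± 4.45 CPM below.

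At the fork, 26 of 30 polymerase, clamp loader and fork genes were higher (median 1.71). Pola1, the catalytic subunit of the polymerase that starts each strand, averaged 62.5 ± 14.2 CPM in members and 10.8 ± 0.615 CPM below. Prim1, the primase, averaged 40.4 ± 6.97 CPM, against 5.04 ± 0.707 CPM. Pold1 and Pole, of the 2 polymerases that extend the strands, had log2 differences of 2.09 ± 0.52 and 2.69 ± 0.71, and Fen1, which trims Okazaki fragments, 1.95 ± 0.24. Clspn and Timeless, which steady the fork, were at 26.5 ± 7.44 and 19.2 ± 4.39 CPM in members, against 1.79 ± 0.185 and 1.65 ± 0.238 CPM below.

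Of the genes that supply nucleotides, 11 of 19 were higher (median 1.09). Dut, which keeps uracil out of DNA, had 135, 146, 107 and 92.0 CPM in members, against 17.3, 15.6, 17.3 and 13.5 CPM below. Tk1, thymidine kinase, averaged 43.9 ± 8.43 CPM, against 2.30 ± 0.065 CPM. The large subunit of ribonucleotide reductase, Rrm1, averaged 81.6 ± 10.5 CPM and 15.5 ± 0.875 CPM below. Its small subunit, Rrm2, averaged 24.9 ± 7.36 and 1.58 ± 0.404 CPM.

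Among E2F and G1/S control genes, 13 of 25 were higher (median 0.99). Ccne2, a cyclin E, had 46.2, 22.6, 26.6 and 38.5 CPM in members, against 1.78, 1.21, 1.07 and 0.813 CPM below. Ccne1, the other cyclin E, averaged 9.11 ± 5.55 CPM and 0.826 ± 0.175 CPM. E2f1, an activator of replication genes, averaged 87.9 ± 11.9 CPM and 35.7 ± 2.33 CPM. E2f7 and E2f8, repressors of such genes, were also called higher but stood at no more than 6.85 CPM in members of any library. Ccnd2 and Ccnd3, D-type cyclins, were not past 1.5-fold in all 4 libraries. Ccnd2 averaged 429 ± 95.8 CPM in members and 342 ± 61.9 CPM below, and Ccnd3 99.6 ± 12.6 and 63.0 ± 7.31 CPM.

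Chromatin assembly and methylation genes were higher in 12 of 20 cases (median 1.16), among them Dnmt1, the maintenance methyltransferase, with 170 ± 22.3 CPM in members and 53.4 ± 11.8 CPM below. Chaf1a, which deposits histones behind the fork, averaged 47.8 ± 9.21 CPM and 5.49 ± 0.70 CPM. Cbx5, a heterochromatin protein, averaged 116 ± 15.8 and 24.6 ± 1.604 CPM. Checkpoint and repair genes were higher in 15 of 22 cases (median 1.59). They included Chek1, a checkpoint kinase (22.8 ± 12.8 CPM in members, against 1.14 ± 0.244 CPM below), and Brca2, a factor of recombination repair (23.2 ± 4.89 CPM, against 2.78 ± 0.553). Of 10 cohesin genes 3 were higher, Smc1a, Smc3 and Esco2, the last of which had 1.07 CPM in members of wildtype late.

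**Figure D2:**
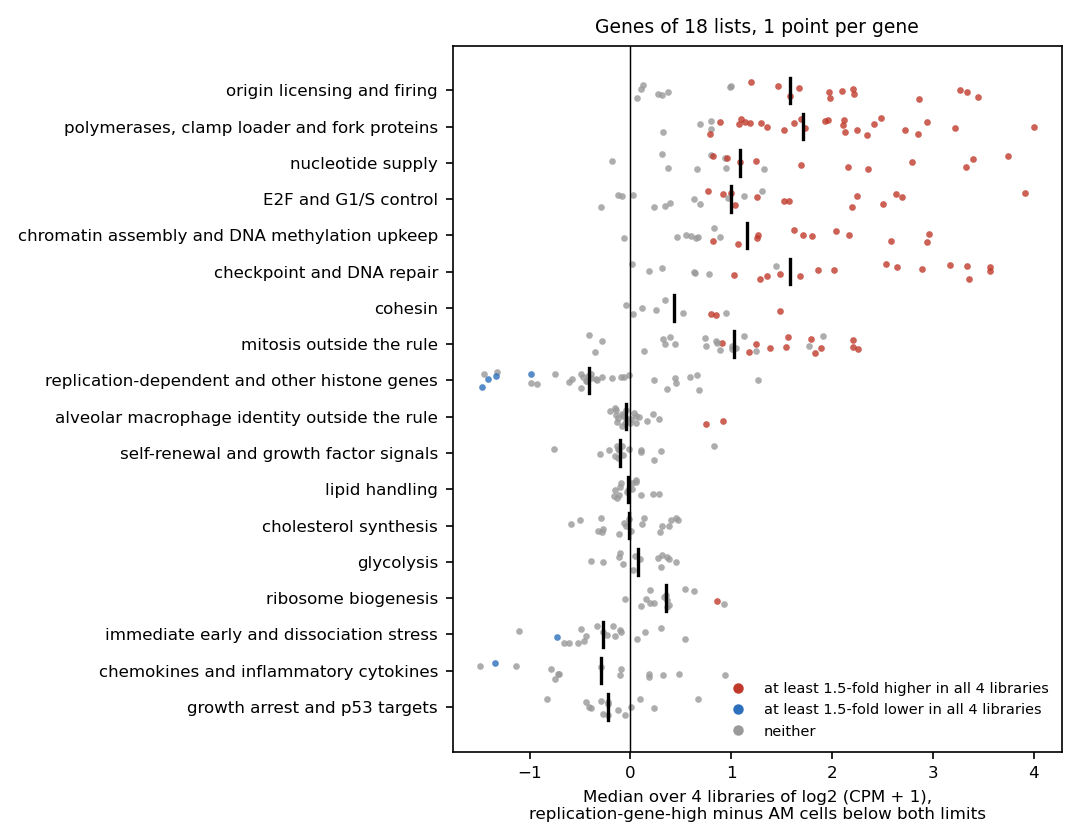
Each point is 1 gene, placed by the median over 4 libraries of its difference in log2(CPM + 1) between replication-gene-high AM cells and AM cells below both limits (x axis), in 18 lists (y axis); black bars are list medians. The 6 lists at the top, from origin licensing to DNA repair, have medians between 0.99 and 1.71, and the macrophage identity, lipid and cholesterol lists have medians near 0.

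The histone genes did not follow. None of 34 measured histone genes was higher in members, and 4 were lower (Hist1h1c, Hist1h2bc, Hist1h4i and Hist2h3c2). Hist1h1c, a linker histone, had 42.8, 29.3, 39.4 and 32.1 CPM in members, against 85.5, 87.3, 105 and 104 CPM below. Hist1h2bc, an H2B gene, had 30.8, 69.2, 41.3 and 32.1 CPM, against 113, 124, 118 and 82.1 CPM below. Members lay under the AM cells below both limits in each library for both genes. As background, most histone genes used in S phase make transcripts that end in a stem-loop without a poly(A) tail, which a poly(A)-primed assay captures poorly. In these libraries Hist1h1b still averaged 370 CPM in AM cells with 5 or more mitosis UMIs, against 4.80 CPM in members. The part of capture in the histone values was not tested.

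The members were also set beside the 283 AM cells above both limits, which held replication and mitosis transcripts together. The 10 replication genes, whose level the choice of cells sets in both classes, summed to 1832, 1750, 1623 and 1739 CPM in members of HER2 early, wildtype early, HER2 late and wildtype late, against 2677, 2375, 2074 and 2669 CPM in cells above both limits. Mcm6, 1 of them, stood at 139 ± 13.0 CPM in members and 129 ± 13.2 CPM in cells above both limits (SD, n = 4 libraries). Hist1h1b, a linker histone made during S phase, averaged 4.80 ± 3.51 CPM in members and 593 ± 96.7 CPM above both limits. Ccna2, the cyclin of S phase and G2, averaged 2.63 ± 0.654 and 144 ± 14.5 CPM, and Rrm2 24.9 ± 7.36 and 412 ± 98.2 CPM. The summed replication genes, Hist1h1b, Ccna2 and Rrm2 were lower in members in all 4 libraries. Members had to hold under 5 mitosis UMIs and cells above both limits 5 or more. The difference may thus be partly set by the choice of cells, and the label of cells in DNA replication was not tested by it. DNA synthesis was not measured, and the members are called replication-gene-high AM cells here, after their leading genes.

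**Figure D3:**
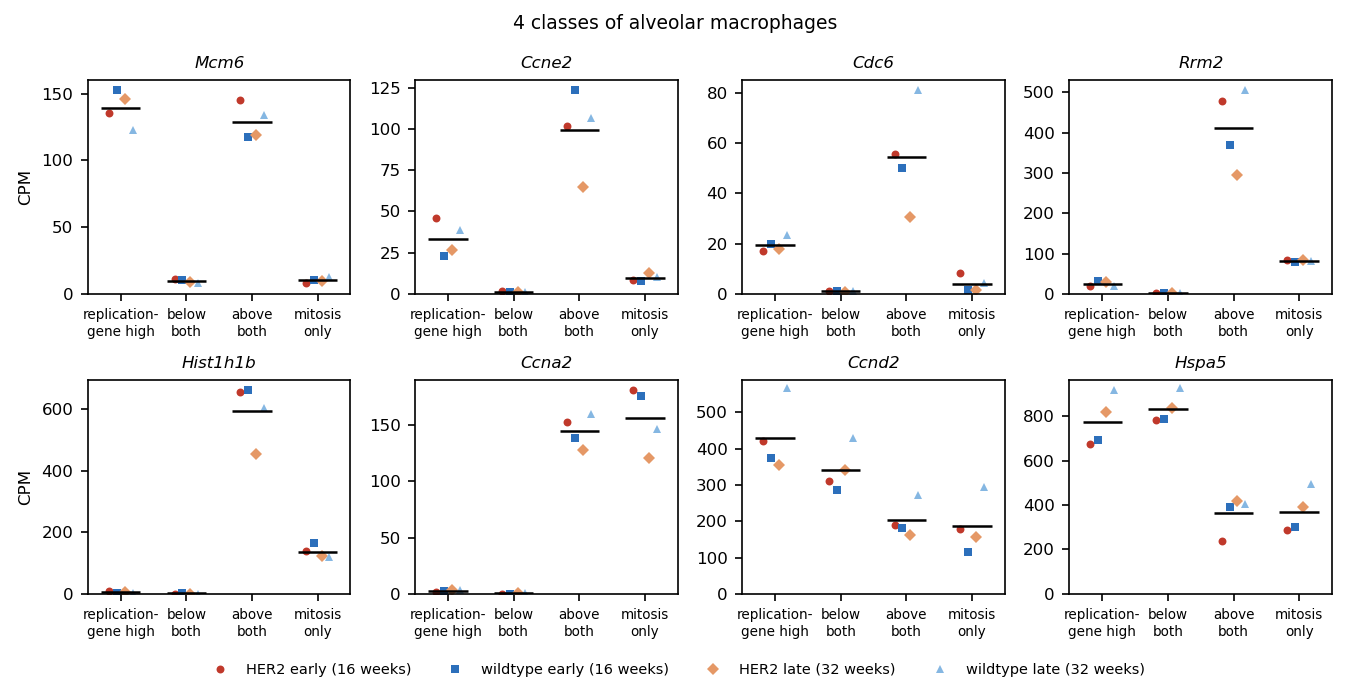
Level (y axis, CPM) of 8 genes in 4 classes of AM cells (x axis): replication-gene-high, below both limits, above both limits and above the mitosis limit only; points are the 4 libraries and bars their means. Mcm6, a gene of the rule, is set by the choice of cells; Hist1h1b, Ccna2 and Rrm2 are lower in the replication-gene-high class than in both classes above the mitosis limit.

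Alveolar identity genes outside the rule were at the level of other AM cells, with 2 of 23 higher and a median difference of -0.04. Siglecf averaged 104 ± 7.58 CPM in members and 111 ± 6.22 CPM below, and Pparg, the transcription factor that sets alveolar identity, 102 ± 12.2 and 112 ± 11.9 CPM. The 2 called higher were Marco, a scavenger receptor, and Car4, a carbonic anhydrase. Marco had 216, 99.8, 278 and 332 CPM in members of HER2 early, wildtype early, HER2 late and wildtype late, against 101, 53.1, 148 and 173 CPM below. Car4 had 265, 253, 214 and 291 CPM, against 144, 161, 126 and 173 CPM. Neither was past 1.5-fold in all 4 libraries against depth-matched cells, where 0 of 23 were called.

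Few growth factor and metabolic genes were called. Over all 10754 genes tested outside the rule, 2.68% were called higher and 0.539% lower. At those shares lists of 8 to 19 genes hold few calls or none. Their counts therefore do not set such lists apart from other genes. None of 16 self-renewal genes was called, and Csf2rb, the receptor subunit for GM-CSF, averaged 173 ± 23.6 CPM in members and 181 ± 11.5 CPM below. Myc averaged 15.8 ± 6.31 and 16.4 ± 2.45 CPM. Of 15 chemokine and cytokine genes 1 was lower, Cxcl3, with no UMI in any member. None of the genes of lipid handling (15), cholesterol synthesis (19), MHC class II (8), glycolysis (14) or growth arrest (15) was called in either direction. Neither was any of 70 oxidative phosphorylation or 95 ribosomal protein genes. In ribosome biogenesis 1 of 15 was called, Pa2g4, at 161 ± 11.1 CPM in members and 88.0 ± 8.54 CPM below.

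Lower outside the histones, at 50 CPM or more, stood Junb, an immediate early transcription factor. It had 116, 112, 131 and 119 CPM in members, against 189, 170, 240 and 202 CPM below (-0.73 ± 0.11, SD, n = 4 libraries). It was the only gene of 19 in the immediate early and dissociation list past 1.5-fold in all 4 libraries, and Fos averaged 205 ± 47.5 and 251 ± 37.7 CPM. The other 9 of the 12 lowest genes, Ankrd12, Setd1b, Vsir, Btg2, Lars2, Zdhhc9, Pik3r1, Clec2d and Zfp36, did not reach 1.5-fold in all 4 libraries, with mean differences from -0.62 to -0.39. For Lars2 the difference of -0.44 was 0.02 against depth-matched cells.

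Markers of other cell types were given their own count. Of the T cell list 7 of 11 genes had no UMI in any member, among them Cd3d and Trac, and the list summed to 0 to 3.99 CPM in members and 3.91 to 32.8 CPM below. Cd79a and Cd79b (B cells), Col1a1, Col1a2, Col3a1 and Dcn (fibroblasts) and S100a9 and Ly6g (neutrophils) were also at 0. Other genes of these lists were present. The fibroblast list had 21 UMIs in HER2 early members, 20 of them in 1 cell. Neutrophil and monocyte genes had a UMI in 18.6%, 16.5%, 26.3% and 18.8% of members, against 10.6%, 10.5%, 15.2% and 17.4% of cells below. B cell genes had one in 2.33%, 0.971%, 3.76% and 8.59% of members, against 1.02%, 1.10%, 1.43% and 2.19% below. Libraries are in the order HER2 early, wildtype early, HER2 late and wildtype late. Endothelial markers summed to 2.66 to 56.5 CPM in members and 17.8 to 24.3 CPM below. The median member had 0 UMIs of C1q, which marks interstitial macrophages. C1q summed to 295, 14.6, 327 and 120 CPM in members, against 57.5, 42.7, 148 and 78.4 CPM below. The median log2 differences of C1qa, C1qb and C1qc were 0.75, 0.80 and 1.19. Against depth-matched cells they were -0.28, -0.19 and 0.06. A single cell held 49.4%, 18.2%, 50.9% and 49.1% of the members' C1q UMIs. Interstitial markers outside the rule summed to 9.31 to 163 CPM in members and 26.4 to 55.5 CPM below, and epithelial markers to 179 to 249 CPM in members and 169 to 265 CPM below. At least 3 UMIs of other-type markers were present in 32.6%, 34.95%, 26.3% and 28.1% of members and in 14.1%, 19.9%, 13.6% and 13.8% of the shallower AM cells below; their part in the results was not tested beyond the recount without such cells.

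Other genes followed the replication transcripts in steps. In AM cells under the mitosis limit with 0, 1 to 3, 4 to 5, 6 to 7, 8 to 9, 10 to 14 and 15 or more replication UMIs, Slfn9 averaged 4.48, 5.56, 12.3, 16.5, 44.5, 53.8 and 129 CPM. Ccne2 averaged 0.818, 0.841, 4.36, 9.79, 12.04, 28.8 and 63.2 CPM over the same steps. Hist1h1c went the other way, with 101, 94.3, 72.6, 58.6, 48.0, 31.6 and 25.5 CPM. Median depth grew along the steps as well, between 3600 UMIs in cells with no replication UMI and 7438 UMIs in cells with 15 or more.

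**Figure D4:**
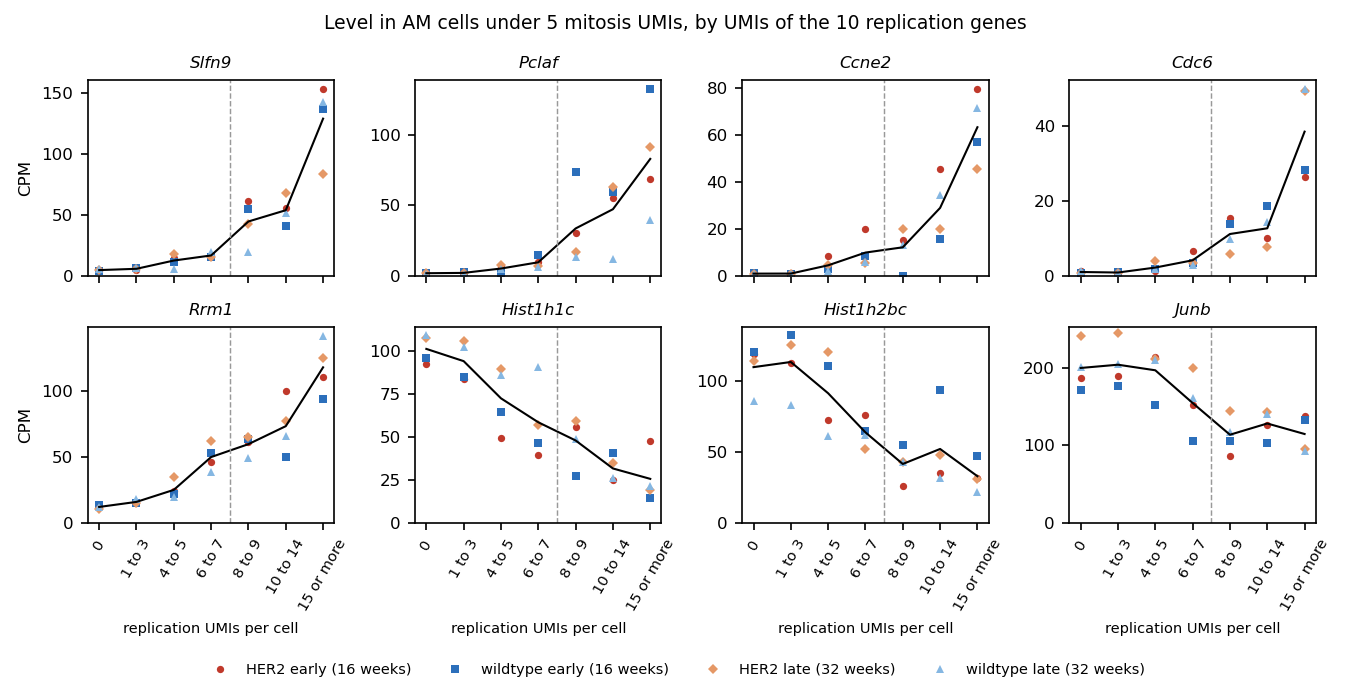
Level (y axis, CPM) of 8 genes outside the rule in AM cells with under 5 mitosis UMIs, by the number of replication UMIs per cell (x axis); points are libraries, the line is their mean and the dashed line marks the limit of 8. Slfn9, Pclaf, Ccne2, Cdc6 and Rrm1 are highest in the last step and Hist1h1c and Hist1h2bc lowest there.

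Among themselves the members differed with their few mitosis transcripts: 245 held none, 154 held 1 or 2, and 51 held 3 or 4. Mcm2 averaged 144 ± 16.5, 135 ± 14.3 and 136 ± 22.6 CPM over these bins (SD, n = 4 libraries). The 10 rule genes together averaged 1569 ± 120, 1827 ± 189 and 2504 ± 366 CPM, with Uhrf1 at 47.7 ± 11.4, 92.3 ± 16.2 and 225 ± 104 CPM and Hells at 82.7 ± 6.28, 124 ± 23.2 and 200.1 ± 36.1 CPM. Ccne2 averaged 16.3 ± 4.36, 33.8 ± 14.02 and 122 ± 64.6 CPM, and Pclaf 14.7 ± 8.34, 49.3 ± 19.6 and 226 ± 102 CPM. Rrm2 averaged 7.77 ± 8.80, 19.1 ± 5.93 and 138 ± 45.0 CPM. Median depth was 6601, 7050 and 6437 UMIs in the 3 bins, lowest in the bin with most Ccne2, Pclaf and Rrm2. The last bin holds few cells, 15, 15, 15 and 6 in HER2 early, wildtype early, HER2 late and wildtype late.

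Against the 637 AM cells above the mitosis limit, 64 genes (0.595%) were at least 1.5-fold higher in members in all 4 libraries and 482 (4.48%) lower. From 10 CPM upward it was 41 (0.575%) and 199 (2.79%), and from 100 CPM upward 21 (1.67%) and 16 (1.27%). All 32 mitosis genes outside the rule were lower (median -3.99), as the rule asked for few such transcripts, and so were 24 of 34 histone genes (median -2.67). Named by size of ratio, Pimreg and Nuf2, of chromosome segregation, had 0 to 1 UMI in the members of any library. Aspm, a spindle protein, had 1.71, 0, 0.984 and 1.07 CPM in members, against 155, 167, 165 and 164 CPM above the mitosis limit. Ccnd2 was higher, with 421, 374, 355 and 567 CPM in members, against 185, 152, 160 and 284 CPM. Hspa5, the chaperone of the endoplasmic reticulum, had 675, 696, 818 and 919 CPM, against 260, 352, 402 and 450 CPM, and Calr, another such chaperone, followed it (log2 difference 1.10 ± 0.12). Aldoc, Mmp19 and Nabp1 completed the 6 highest from 50 CPM upward, with differences of 1.79 ± 0.28, 1.27 ± 0.43 and 0.96 ± 0.07. Mean levels in members and over all AM cells were 777 and 811 CPM for Hspa5 and 686 and 737 CPM for Calr. They were 60.8 and 57.3 CPM for Aldoc, 153 and 145 CPM for Mmp19 and 261 and 238 CPM for Nabp1. Ccnd2 was at 429 and 338 CPM. Members were thus near the usual level for all of these but Ccnd2, and cells above the mitosis limit were below it.

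The share of AM cells that were members was 1.95% in HER2 early (95% Clopper-Pearson interval 1.56 to 2.40%) and 2.13% in wildtype early (1.74 to 2.58%). At 32 weeks it was 2.33% in HER2 late (1.96 to 2.76%) and 3.02% in wildtype late (2.52 to 3.57%). The ratio of HER2 to wildtype was 0.914 (0.679 to 1.23) at 16 weeks and 0.774 (0.602 to 0.994) at 32 weeks. The share depended on depth, with 0.0877 to 0.388% of cells of 1000 to 3000 UMIs and 7.51 to 11.1% of cells of 8000 to 12000 UMIs. Weighted to a common depth distribution the shares were 2.61%, 2.09%, 2.21% and 2.60%, and the ratios 1.25 at 16 weeks and 0.849 at 32 weeks, so the order of HER2 and wildtype at 16 weeks turned round. With every cell thinned to 3000 UMIs, 27 of 2983, 44 of 3693, 36 of 4413 and 39 of 3550 cells passed the same limits (0.905%, 1.19%, 0.816% and 1.10%); 1430, 1140, 1289 and 695 shallower cells were left out, and the unthinned shares of the kept cells were 2.78%, 2.76%, 2.90% and 3.58%. The 10 genes summed to 326, 341, 293 and 342 CPM over all AM cells. Cells with more C1q than alveolar transcripts, which are set apart from AM cells by the rule, passed the same limits in 14 of 434, 13 of 291, 30 of 634 and 15 of 598 cases (3.23%, 4.47%, 4.73% and 2.51%), at median depths of 4420, 6307, 5207 and 3127 UMIs.

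HER2 members were compared with wildtype members at 16 weeks as a ratio of CPM over 1399 genes with 100 CPM or more in either library. A gene was counted at 1.5-fold or more with its counting interval on 1 side of 1. At 16 weeks 16 genes (1.14%) were higher in HER2 and 26 (1.86%) lower, and 28 of these 42 lay on the same side in AM cells below both limits. Over all 1399 genes the SD of the log2 ratio was 0.319 in members and 0.106 in AM cells below. The share on the same side over all genes tested is not given, here and in the comparisons below. Genes of the rule were left out of these counts, here and in the comparisons below. Taken apart, none of the 10 replication genes of the rule reached 1.5-fold with its interval on 1 side of 1. The members of both libraries were chosen by these genes, so this is no test of the genotypes. Marco was higher, with 216 CPM in HER2 members and 99.8 CPM in wildtype members (2.16-fold, 1.61 to 2.92), and 1.90-fold in AM cells below; without cells holding 3 or more other-type marker UMIs its log2 difference in members was 0.06. Safb, a nuclear scaffold protein, was 1.96-fold higher (1.30 to 3.003) and Rif1, which times origin firing, 1.78-fold higher (1.19 to 2.69), while in AM cells below their ratios were 0.960 and 1.05. Lower in HER2 were Fn1, fibronectin, with 13.7 CPM in HER2 members and 112 CPM in wildtype members (0.123-fold, 0.0513 to 0.253), and Atxn1 (0.483-fold, 0.313 to 0.728). Fn1 was also lower in AM cells below (0.425-fold). Of leading genes under 100 CPM, Ccne2 had 46.2 CPM in HER2 members and 22.6 CPM in wildtype members (2.04-fold, 1.07 to 3.998). Pclaf had 51.4 CPM in HER2 members and 83.8 CPM in wildtype members (0.613-fold, 0.383 to 0.961). In AM cells below, the ratios of Ccne2 and Pclaf were 1.47 and 0.974. Both genes were picked after their values were seen. Slfn9, Cdc6, Rrm1 and Cdt1, also under 100 CPM, were at 1.24-fold, 0.858-fold, 1.36-fold and 1.04-fold, each with an interval that included 1.

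Single cells set several of the values at 16 weeks. Retnla had 74 UMIs in HER2 members, of which 73 were in 1 cell, and 1 UMI in wildtype members. Apoe, a lipid carrier, had 232 UMIs in HER2 members and 123 in wildtype members, and its ratio of 2.43 was 1.53 without the richest cell of each library; with alveolar genes required at 1% of UMIs its log2 difference was -0.000905, so its direction turned. S100a6, a calcium-binding protein, had 25 UMIs in HER2 members and 158 in wildtype members, 64 of them in 1 cell (0.204-fold, and 0.225-fold without the richest cells). Apoc1 (1.79-fold), Mdh1 (1.73-fold) and Neat1 (1.52-fold) were higher and Dusp1 (0.618-fold), Wfdc17 (0.626-fold) and Ctsk (0.656-fold) lower in HER2. Neat1 was at 1.46-fold without the richest cell of each library, and Wfdc17 had a log2 difference of 0.0142, in the other direction, with a mitochondrial limit of 5%. Spp1, with 1909 CPM in HER2 members and 2590 CPM in wildtype members, did not reach 1.5-fold (0.737-fold, 0.684 to 0.794).

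**Figure D5:**
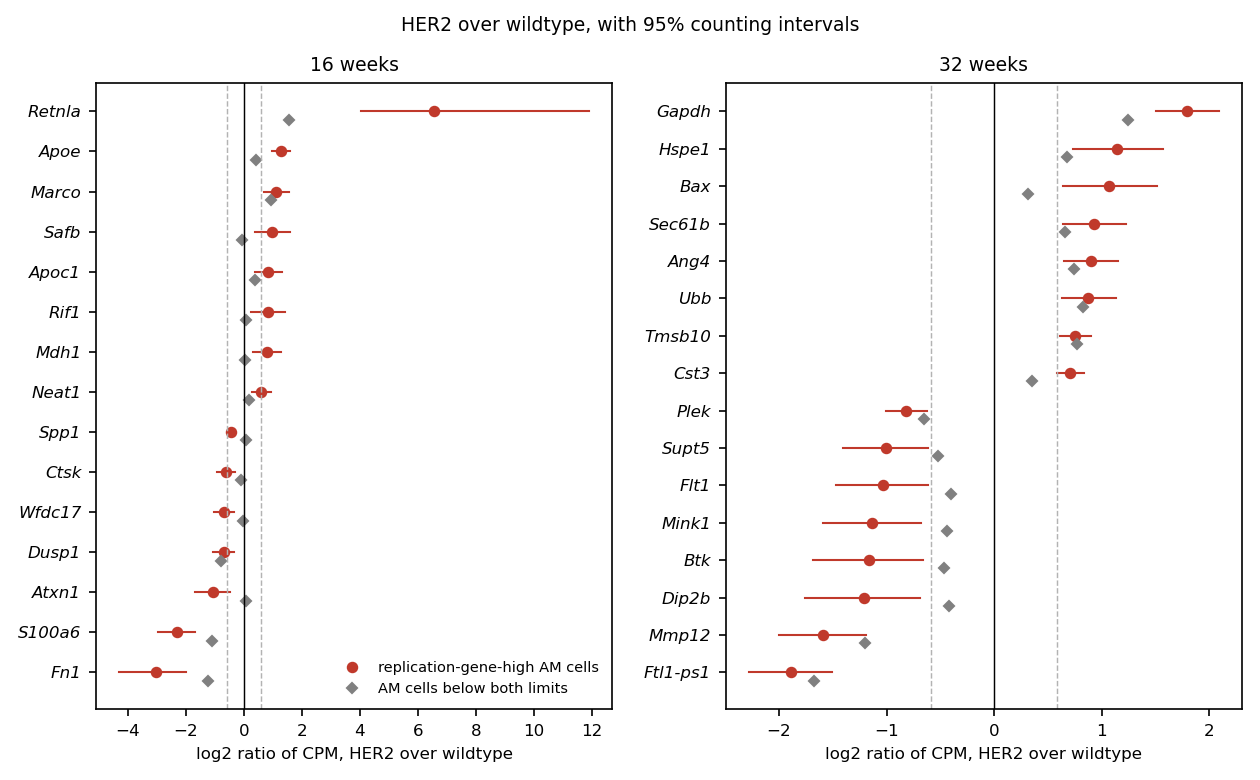
Log2 ratio of CPM, HER2 over wildtype (x axis), for genes of the highest and lowest ratios (y axis) at 16 weeks (left) and 32 weeks (right); circles with 95% counting intervals are replication-gene-high AM cells, diamonds AM cells below both limits, and dashed lines mark 1.5-fold. At 32 weeks each diamond lies on the same side of 0 as its circle; at 16 weeks those of Safb, Atxn1 and Spp1 do not.

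At 32 weeks more genes passed: of 1486, 69 (4.64%) were higher in HER2 members and 126 (8.48%) lower, and all 195 lay on the same side in AM cells below both limits, 46 of them past 1.5-fold there. Over all 1486 genes the SD of the log2 ratio was 0.396 in members and 0.301 in AM cells below. Gapdh, a glycolytic enzyme, had 474 CPM in HER2 members and 137 CPM in wildtype members (3.46-fold, 2.85 to 4.24), and 2.37-fold in AM cells below. Hspe1, Bax, Sec61b, Ang4, Ubb, Tmsb10 and Cst3 were between 1.63-fold and 2.21-fold higher; 238 of the 1537 UMIs of Cst3 in HER2 members were in 1 cell, and its ratio was 1.45 without the richest cell of each library. Lower were Ftl1-ps1, a ferritin pseudogene (0.271-fold, 0.206 to 0.351), and Mmp12, macrophage elastase (0.333-fold, 0.251 to 0.438). Dip2b, Btk, Mink1, Flt1, Supt5 and Plek were between 0.431-fold and 0.568-fold. Gapdh, Ftl1-ps1, Hspe1, Sec61b, Tmsb10 and Ubb have near-identical copies in the genome, so their reads may be split between loci.

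At 32 weeks 8.48% of all genes tested were lower in HER2 members. Of 9 rule genes with 100 CPM or more in either library, 1 was lower (Mcm4). The members of both libraries were chosen by the rule genes, so this is no test of the genotypes. Of 24 listed origin licensing genes only Mcmbp and Cdt1 reached that level, and both were lower. Both reached it in wildtype late members alone, so the filter let them in through the group where they were high. Also lower were 1 of 5 nucleotide supply genes (Atic) and 1 of 2 E2F and G1/S control genes (Ccnd2). Mcm4 had 120 CPM in HER2 members, against 185 CPM in wildtype members (0.649-fold, 0.510 to 0.823). Mcmbp, an MCM-binding protein, had 57.1 CPM in HER2 members and 109 CPM in wildtype members (0.523-fold, 0.372 to 0.729). Cdt1 was lower (64.9 CPM in HER2 members and 125 CPM in wildtype members, 0.519-fold, 0.378 to 0.708). Pclaf, under 100 CPM, was at 54.1 CPM in HER2 members and 20.3 CPM in wildtype members (2.66-fold, 1.56 to 4.75). Slfn9, Ccne2, Cdc6 and Rrm1, also under 100 CPM, were at 0.920-fold, 0.690-fold, 0.753-fold and 1.03-fold, each with an interval that included 1. Of 77 ribosomal protein genes, 16 were higher and 3 lower in HER2 members (median log2 ratio 0.41, and 0.34 in AM cells below), and of 61 oxidative phosphorylation genes 8 were higher and 1 lower (0.26, and 0.16 below).

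Between stages, members of HER2 late and HER2 early differed in 22 genes (1.62%) higher and 19 (1.4%) lower at 32 weeks of 1362. Members of wildtype late and wildtype early differed in 135 (8.74%) higher and 146 (9.46%) lower of 1544, and 280 of those 281 lay on the same side in AM cells below. The larger counts, here and between HER2 and wildtype at 32 weeks, both involve the wildtype late library. In HER2, Cd74, the invariant chain of MHC class II, had 1152 CPM in late and 454 CPM in early members (2.54-fold, 2.22 to 2.91); H2-Aa was 1.87-fold, Ear10 1.81-fold and Mt1 1.70-fold higher. Without the richest cell of each library these ratios were 4.16 for Cd74, 3.95 for H2-Aa and 2.94 for Mt1. Lower in HER2 late were Stmn1 (0.540-fold), Ubb (0.594-fold), Safb (0.480-fold) and Retnla, whose 74 UMIs in HER2 early members included 73 in 1 cell.

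In wildtype, Ftl1-ps1 had 273 CPM in late and 30.6 CPM in early members (8.92-fold, 5.81 to 14.3), and 7.52-fold in AM cells below. Marco was 3.32-fold (2.58 to 4.34), Mt2, a metallothionein, 3.98-fold and Mcmbp 2.93-fold (1.91 to 4.62) higher; Mcmbp was 1.24-fold in AM cells below. Hspa1b (0.182-fold), Gapdh (0.275-fold), Fn1 (0.278-fold, and 0.151-fold without the richest cell of each library) and Ubb (0.358-fold) were lower. Of the members' own leading genes, Stmn1 had 127 CPM in late and 362 CPM in early members (0.352-fold, 0.281 to 0.438), Pclaf 20.3 and 83.8 CPM (0.243-fold, 0.137 to 0.410) and Dut 92.0 and 146 CPM (0.629-fold, 0.469 to 0.841). In AM cells below both limits those ratios were 0.508, 0.621 and 0.869. Slfn9, Ccne2, Cdc6 and Rrm1 were at 0.953-fold, 1.70-fold, 1.18-fold and 1.25-fold in members, each with an interval that included 1. The comparisons between stages and between genotypes share libraries, so they are not separate evidence.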

How the data were processed

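The authors deposited raw UMI counts per gene and barcode for 4 libraries of lung macrophages (28786682 to 39228655 UMIs per library, 6794880 barcodes with no cell filter). Cell Ranger 5.0.1 and mm10 are named in the submitters' processing notes, and the file headers name Cell Ranger 4. Samples were grouped by title. The deposited tables of averages were not used.

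Counts were summed per library and cell class and scaled to 1000000 (CPM). Ratios within a library used log2(CPM + 1) and genes of at least 1 CPM over all AM cells. HER2 over wildtype and late over early used exact conditional binomial 95% intervals, which cover counting error only. There is no test, since each group is 1 library and the cells were chosen by their counts. With 4 libraries the smallest 2-sided sign-flip p is 0.125.

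The members, gene lists and comparisons were chosen with earlier results of these data known. Named genes outside the rule are the 12 highest and 12 lowest by the ratio nearest to 1 over the libraries (at least 50 CPM), 6 each against cells above the mitosis limit, and 8 or 4 each by the interval bound nearest to 1 (at least 100 CPM); other named genes come from the lists, some by the 4 highest levels or ratios and some for their known roles, chosen after their values were seen. Mitochondrial, ribosomal protein, haemoglobin, immunoglobulin, Y-linked and unnamed genes and Xist were left out of the ranking, and a few named items are not reported here. No doublet caller was run; cells over 15000 UMIs, or with other-type markers, were left out as alternatives. The last 300 bases of 113 named genes were searched in GENCODE transcripts with BLAST+ 2.17.0 (at least 95% identity over 90 bases). The code was tested on simulated data. Python 3.11.15, numpy 2.4.6, scipy 1.17.1 and pandas 2.3.3 were used.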

Additional observations from a re-analysis of the deposited data

Results flagged for a closer look

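In 5 genes the ratio of HER2 to wildtype members lay on opposite sides of 1 at the 2 stages, each with a counting interval that excluded 1. Gapdh was at 0.802-fold at 16 weeks and 3.46-fold at 32 weeks, and Wfdc17 at 0.626-fold and 1.44-fold. With a mitochondrial limit of 5% Wfdc17 at 16 weeks had a log2 difference of 0.0142, in the other direction. Marco was at 2.16-fold at 16 weeks and 0.837-fold at 32 weeks, Neat1 at 1.52-fold and 0.834-fold, and Safb at 1.96-fold and 0.634-fold. At 16 weeks Neat1 was at 1.46-fold without the richest cell of each library, and Marco had a log2 difference of 0.06 without cells holding 3 or more other-type marker UMIs. In AM cells below both limits Gapdh was at 0.9501-fold and 2.37-fold, Marco at 1.90-fold and 0.856-fold, Neat1 at 1.14-fold and 0.837-fold, Safb at 0.960-fold and 0.905-fold, and Wfdc17 at 0.991-fold and 1.17-fold. Each stage has 1 library per genotype, and the difference between stages was not tested.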

How the results depend on the processing

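Share ratio, HER2 over wildtype: at 16 weeks it was 1.00 with alveolar genes at 1% of UMIs or more, and, in settings chosen after seeing the data, 1.09 when thinned to 3000 UMIs with limits of 4 and 3, and 1.25 at standardised depth; at 32 weeks it was 0.534 with a mitochondrial limit of 5%. Genes against AM cells below, of 288 higher and 58 lower: lower were 15 at 6 or more replication UMIs, 181 at 12 or more, 104 at 5% mitochondrial, 120 depth-matched and 118 with Gm42418, mitochondrial and ribosomal protein genes out of the totals. Higher and lower were 191 and 9 with a pseudocount of 5 CPM, 134 and 11 from 10 CPM, and 16 and 2 from 100 CPM. Leaving out 1 library gave 110 to 130 lower. Against cells above the mitosis limit, of 64 and 482, there were 41 and 199 from 10 CPM, 21 and 16 from 100 CPM, and 113 to 131 higher without 1 library.

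HER2 over wildtype at 16 weeks, of 16 higher and 26 lower: 7 and 10 (6 or more UMIs), 41 and 43 (12 or more), 46 and 51 (5% mitochondrial), 32 and 60 (no other-type markers), 43 and 52 (totals as above), 123 and 162 (20 CPM), 4 and 4 (200 CPM), and 40 lower under 3 mitosis UMIs. At 32 weeks, of 69 and 126: 211 lower (12 or more), 112 higher (totals), 187 and 629 (20 CPM), 43 and 48 (200 CPM). On the log2 scale at 16 weeks Wfdc17 was 0.0142 at 5% mitochondrial and Apoe -0.000905 at 1% alveolar genes. Fewer genes enter at a higher minimum CPM and more at a lower one; the other causes were not tested. Over named genes and shares per library, 1360 values kept within their spread or interval, 188 moved and 2 were labelled as turned round. That label does not cover every change of direction. The log2 difference of Lars2 between members and AM cells below went from -0.44 to 0.02 with depth matching, without that label. No paired analysis was possible because each group is 1 library with no number that ties it to another.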
